A study of Mus musculus with 12 samples.

Results

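Insulin-like growth factor 1 (IGF1), the IGF receptors and the IGF-binding proteins were followed by 10 genes, *Igf1*, *Igf1r*, *Igf2r* and *Igfbp1* to *Igfbp7*, taken by symbol from the 35275 genes of a count table of whole mouse kidney. Each symbol matched a single gene, and all 10 passed the filter on low counts in every comparison. Poly(A) RNA was sequenced from kidneys of 12 C57BL/6J mice at 6 months of age. The 4 WT mice carried no engineered allele, the 4 RC/RC mice were homozygous for RC, a hypomorphic knock-in allele of *Pkd1* that models slowly progressive autosomal dominant polycystic kidney disease, and the 4 RC/RC:*Casp1*KO mice carried the same *Pkd1* alleles together with a germline deletion in *Casp1*, the gene of Caspase-1, made with TALENs and taken from 1 founder mutation. Both alleles are carried in the germline, and each group held 2 females and 2 males. Between 18019819 and 24869454 reads were counted per mouse. Mice are named as in the table (B6 for WT, RC for RC/RC, Del3 for RC/RC:*Casp1*KO), where the names give the group and not the sex.

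IGF1 and IGF2 are small secreted hormones. Both activate the tyrosine kinase receptor encoded by *Igf1r*, whereas the receptor encoded by *Igf2r* binds IGF2 and mannose 6-phosphate and carries them to the lysosome without a kinase of its own. The binding proteins IGFBP1 to IGFBP6 hold IGFs with high affinity in blood and tissue, prolonging their life and limiting their access to the receptor, and IGFBP7 is a related matrix protein with low affinity. In the kidney, IGF1 acts on glomerular filtration, tubular growth and the enlargement that follows loss of nephrons.

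The 250 bases before the RefSeq start of the 3 genes called in a comparison (*Igf1*, *Igfbp6*, *Igf2r*) and of *Igf1r*, whose level followed that of *Igf2r*, are shown to place these transcripts beside their promoters (build GRCm38.p6, 5′ to 3′ on the gene's strand). Capitals mark matches, on either strand, to the GC box GGGCGG, the E-box CACGTG, the TEAD motif GGAATG and the TATA box TATAAA.
*Igf1* (chr10:87860861-87861110, plus strand): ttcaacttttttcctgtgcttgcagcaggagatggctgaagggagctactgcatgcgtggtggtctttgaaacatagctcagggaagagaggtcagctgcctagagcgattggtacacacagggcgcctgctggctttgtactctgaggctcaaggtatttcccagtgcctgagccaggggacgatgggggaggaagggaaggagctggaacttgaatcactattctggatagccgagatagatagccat
*Igfbp6* (chr15:102143936-102144185, plus strand): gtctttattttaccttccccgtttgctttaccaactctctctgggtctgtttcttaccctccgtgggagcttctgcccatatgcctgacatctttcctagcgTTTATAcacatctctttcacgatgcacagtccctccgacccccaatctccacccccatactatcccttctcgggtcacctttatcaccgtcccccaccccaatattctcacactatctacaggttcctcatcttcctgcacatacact
*Igf1r* (chr7:67952007-67952256, plus strand): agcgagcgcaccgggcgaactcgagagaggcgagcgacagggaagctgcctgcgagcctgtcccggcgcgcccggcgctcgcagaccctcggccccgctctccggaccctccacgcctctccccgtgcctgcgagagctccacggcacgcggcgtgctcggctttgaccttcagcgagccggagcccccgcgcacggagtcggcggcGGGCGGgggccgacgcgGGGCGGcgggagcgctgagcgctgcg
*Igf2r* (chr17:12769707-12769956, minus strand): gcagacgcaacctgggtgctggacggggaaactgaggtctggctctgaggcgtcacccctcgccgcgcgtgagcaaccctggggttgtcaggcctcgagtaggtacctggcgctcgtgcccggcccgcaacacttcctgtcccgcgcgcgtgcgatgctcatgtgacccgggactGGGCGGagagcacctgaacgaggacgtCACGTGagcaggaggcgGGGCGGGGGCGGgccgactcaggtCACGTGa
The *Igf2r* window held 3 GC boxes and 2 E-boxes, and *Igf1r* held 2 GC boxes. GC content was 69.2% in *Igf2r* and 77.6% in *Igf1r*, against 52.8% in *Igf1* and 49.6% in *Igfbp6*. None of the 4 motifs was found in the *Igf1* window. That window lies inside *Igf1* as counted here, which starts at chr10:87858265, so it does not precede the start of the counted gene. The *Igfbp6* window held 1 TATA box match, whose first base lies 148 bases before the start. Of 32851 windows of this length, 32.7% held a GC box, 6.02% an E-box, 12.6% a TEAD motif and 12.4% a TATA box, with a median GC content of 52.4%. A GC box was also present before *Igfbp2* and *Igfbp7*, an E-box before *Igfbp2* and a TATA box match 28 bases before the start of *Igfbp4*. The only TEAD match among the 10 genes lay before *Igfbp5*. These matches describe letters in a window, and binding was not measured.

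By the table's coordinates, in the submitters' build mm10, 4 binding protein genes sit in 2 tail-to-tail pairs. *Igfbp2* (chr1:72824503-72852474, plus strand) and *Igfbp5* (chr1:72857932-72874884, minus strand) are 5457 bp apart, and *Igfbp1* (chr11:7197782-7202546, plus strand) and *Igfbp3* (chr11:7206086-7213923, minus strand) are 3539 bp apart, with no gene of the table between the members of a pair. Neighbours did not follow each other closely. Across the 12 mice, Pearson's r of log2 CPM was 0.47 for *Igfbp2* with *Igfbp5* and -0.24 for *Igfbp1* with *Igfbp3*. The other 6 genes lie apart: *Igf1* at chr10:87858265-87937042, *Igf1r* at chr7:67952859-68226780, *Igf2r* at chr17:12682406-12769664, *Igfbp4* at chr11:99041244-99054392, *Igfbp6* at chr15:102144362-102149511 and *Igfbp7* at chr5:77349240-77408045. The table also lists genes on the opposite strand that overlap *Igf1* (*Igf1os*, at most 2 counts in a mouse), *Igf2r* (*Airn*, at most 223) and *Igfbp7* (*Polr2b*, at most 2265). Whether counting used the strand is not given in the sources used here, so reads of these pairs may be shared.

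Levels per length were compared in FPKM, the count divided by the table's gene length and the total count of the mouse, in the usual units. The kidney's binding protein RNA was mostly *Igfbp7*. In WT it had 1089 ± 210 FPKM (SD, n = 4), followed by *Igfbp4* with 286 ± 31.4, *Igfbp3* with 146 ± 23.3 and *Igfbp5* with 100 ± 17.0, and no range of these 4 reached that of its neighbour. Below them came *Igf1r* (21.1 ± 9.95 FPKM), *Igf2r* (17.6 ± 6.93), *Igfbp1* (8.64 ± 6.78), *Igfbp2* (4.63 ± 4.00), *Igf1* (1.89 ± 0.519) and *Igfbp6* (1.01 ± 0.251), where each range overlapped the next. *Igfbp7* made up 66.2% of the summed FPKM of the 7 binding proteins in WT, 70.5% in RC/RC and 68.7% in RC/RC:*Casp1*KO. *Igfbp6* held 0.0632%, 0.316% and 0.157%, and *Igfbp2* 0.290%, 0.981% and 0.610%. In RC/RC, *Igfbp2* came next after the 4 abundant ones with 20.6 ± 6.93 FPKM, though its range overlapped that of *Igf1r*. The ranges of *Igfbp3* and *Igfbp5* overlapped in both mutant groups. In WT the coefficient of variation of CPM (counts relative to the total count of the mouse, scaled with TMM factors) was 12.8% for *Igfbp4*, 14.9% for *Igfbp5*, 15.7% for *Igfbp3* and 20.5% for *Igfbp7*, against a median of 15.8% over all genes tested, whereas it was 80.3% for *Igfbp1* and 85.5% for *Igfbp2*. *Igfbp4* reached 33.8% in RC/RC, where the median was 18.7%.

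**Figure D1:**
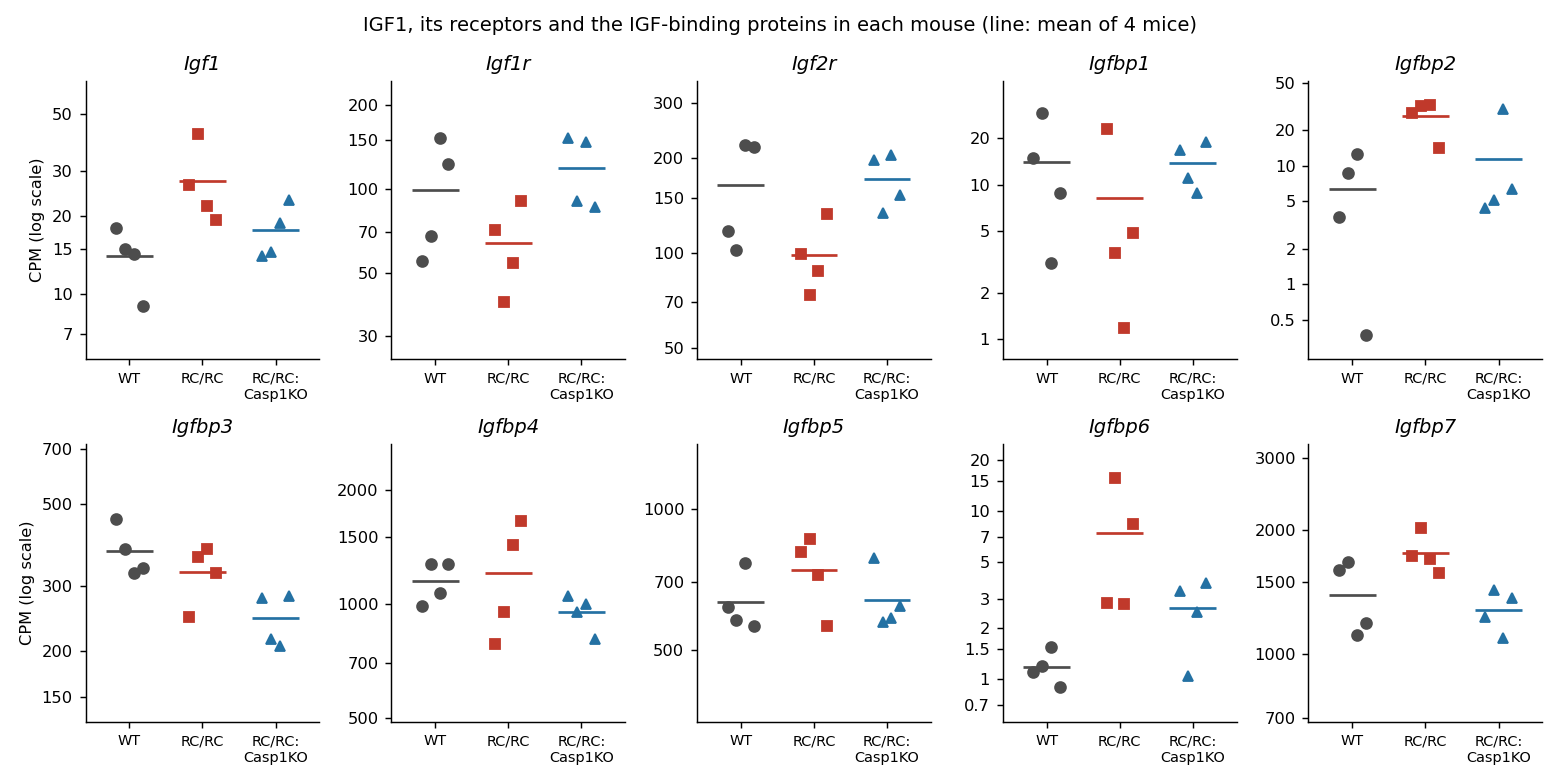
CPM (log scale) of the 10 genes in each of 12 mice, by group, with points for mice and lines for the means of 4 mice. *Igf1*, *Igfbp2* and *Igfbp6* are higher in all RC/RC mice than in any WT mouse, and *Igf2r* is higher in all RC/RC:*Casp1*KO mice than in any RC/RC mouse.

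As a check of labels, *Casp1* had 2.06, 1.29, 1.30 and 1.41 CPM in WT, 3.37, 3.84, 4.26 and 2.62 in RC/RC and 0.665, 0.385, 1.05 and 0.664 in RC/RC:*Casp1*KO, where it was lower than in RC/RC (log2 fold change -2.35 ± 0.32 SE, adjusted p = 0.00514). In RC/RC it was higher than in WT (log2 fold change 1.21 ± 0.25 SE, adjusted p = 0.0142). The deletion covers the end of an exon with its splice donor, and the table counts reads over the whole gene. *Pkd1*, at 40.4, 42.5, 67.1 and 61.7 CPM in WT, 59.7, 67.0, 46.7 and 48.0 in RC/RC and 56.3, 73.0, 86.1 and 70.2 in RC/RC:*Casp1*KO, was not called in any comparison, and the RC allele does not delete it. The RNA carried the defining genes of kidney: proximal tubule, thick ascending limb, distal convoluted tubule, collecting duct, podocyte and endothelial lists had no gene at 3 counts or fewer in all mice, led by *Slc34a1*, *Umod*, *Slc12a3*, *Aqp2*, *Podxl* and *Plvap*. Of 5 adrenal cortex genes, *Cyp11a1*, *Cyp11b1*, *Cyp21a1* and *Hsd3b1* did not exceed 3 counts in any mouse, and *Star* was the most abundant.

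Adipocyte RNA differed widely between mice. The 6 adipocyte genes, led by *Cidec*, summed to 0.310, 412, 0.270 and 44.6 CPM in RC105, RC139, RC140 and RC143. The sums were 0.335, 0.479, 10.5 and 0.234 CPM in the WT mice B6_2, B6_3, B6_4 and B6_6, and 16.0, 0.231, 0.682 and 21.6 CPM in Del3_42, Del3_60, Del3_70 and Del3_105. *Adipoq*, the adipocyte hormone adiponectin, had 1886 counts in RC139 and 270 in RC143, 109 in Del3_105, 72 in Del3_42 and 64 in B6_4, and at most 3 in the others. None of the 6 genes passed the filter in RC/RC relative to WT.

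*Igf1* and *Igfbp6* were the 2 genes of 10 that were called in RC/RC relative to WT (edgeR's quasi-likelihood test, Benjamini-Hochberg adjusted p under 0.05 over 15243 genes), both higher. Of all genes tested, 12.9% were called in this comparison, 9.76% as higher and 3.18% as lower. Groups did not overlap for 3 of the 10 genes (*Igf1*, *Igfbp2*, *Igfbp6*), all higher in RC/RC, where 19.3% of all genes showed no overlap. Before adjustment, 4 of the 10 had p under 0.05, as did 29.2% of all genes tested.

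*Igf1*, the ligand, had 17.99, 14.9, 14.3 and 8.95 CPM in the 4 WT mice, 26.5, 41.9, 22.0 and 19.4 in RC/RC and 14.1, 14.5, 18.9 and 23.2 in RC/RC:*Casp1*KO. Every RC/RC mouse was above every WT mouse, RC139 was the highest, and the RC/RC:*Casp1*KO mice overlapped both other groups. The mean was 14.0 ± 3.76 CPM (SD, n = 4) in WT and 27.5 ± 10.1 in RC/RC, a 1.95-fold difference (log2 fold change 0.97 ± 0.27 SE, adjusted p = 0.0479). The RC/RC:*Casp1*KO mean was 17.7 ± 4.30 CPM, which differed from neither RC/RC (log2 fold change -0.63 ± 0.26 SE, adjusted p = 0.128) nor WT (log2 fold change 0.34 ± 0.23 SE, adjusted p = 0.407) past the threshold. Without RC139 the difference of RC/RC:*Casp1*KO from RC/RC was -0.33 on the log2 scale (edgeR, adjusted p = 0.359). The call in RC/RC stood close to the threshold: the adjusted p was 0.113 without RC139, 0.111 without B6_6, 0.0892 without B6_4, 0.0870 without B6_3, 0.0748 without RC105, 0.0652 without RC140 and 0.129 without both RC139 and RC143, with log2 fold changes from 0.66 to 1.06 in these fits. *Igf1* was also not called with limma on FPKM (adjusted p = 0.0666) or with RLE factors (0.0507).

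The 3 genes most like *Igf1* over the 12 mice, among 14878 others tested in all comparisons, were *Emp2* (r = 0.98), *Paqr6* (r = 0.98) and *Esyt1* (r = 0.96). Fibroblast genes moved in the same direction as *Igf1*. All 8 genes of the fibroblast list, led by *Dcn*, were called higher in RC/RC than in WT, and their summed level was 312, 221, 254 and 291 CPM in the WT mice, 1192, 1905, 1083 and 829 in RC/RC and 313, 327, 720 and 469 in RC/RC:*Casp1*KO. Macrophage genes, led by *Lyz2*, were called higher for 8 of 9, with sums of 200, 163, 171 and 155, 571, 534, 492 and 412 and 210, 278, 482 and 260 CPM. Their part in the *Igf1* difference was not tested, and in these bulk samples more cells of a type and more RNA per cell cannot be told apart.

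The growth hormone pathway, which drives *Igf1* in liver and other tissues, was measured by 8 genes that also held *Igf2* and *Igfals*, the subunit of the circulating ternary complex. None of the 8 was called in RC/RC relative to WT or in RC/RC:*Casp1*KO relative to WT. *Stat5a* and *Stat5b*, transcription factors downstream of the growth hormone receptor, were higher in RC/RC:*Casp1*KO than in RC/RC. They are 25% of the 8, beside 11.6% of all genes called in that comparison. *Stat5a* had 20.8, 16.3, 16.9 and 15.8 CPM in RC/RC and 23.8, 24.7, 26.9 and 21.1 in RC/RC:*Casp1*KO (log2 fold change 0.47 ± 0.11 SE, adjusted p = 0.034), and *Stat5b* had 56.8, 47.2, 45.6 and 53.3 and 75.3, 65.4, 63.6 and 61.9 CPM (log2 fold change 0.39 ± 0.11 SE, adjusted p = 0.0441). Neither pair of groups overlapped. The *Stat5a* call was kept in 1 of 8 fits with a mouse left out (without RC105, adjusted p up to 0.0952 in the others), and that of *Stat5b* was kept in 2 of 8 fits with a mouse left out (without RC105 or RC143, adjusted p up to 0.125 in the others).

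*Igf2*, the second ligand, and *Igfals* were named after their values were seen. *Igf2* had 47.5 (B6_2), 198 (B6_3), 3.35 (B6_4) and 1.87 (B6_6) CPM in WT, 327 (RC105), 192 (RC139), 2.43 (RC140) and 2.62 (RC143) in RC/RC and 2.88 (Del3_42), 237 (Del3_60), 2.09 (Del3_70) and 300 (Del3_105) in RC/RC:*Casp1*KO. Each group thus held 2 mice above 47 CPM and 2 mice below 4 CPM, and no comparison called it (log2 fold change 1.07 ± 1.61 SE, adjusted p = 0.693, for RC/RC relative to WT). The 6 mice with high *Igf2* were the 6 with *Xist*, the RNA of the inactive X chromosome, at 278 CPM or more, and in the others *Xist* stood at 0.818 CPM or less. The Y-linked gene *Ddx3y* was between 55.5 and 78.5 CPM in these others and at most 0.115 CPM in the 6. *Igf2os*, listed on the strand opposite to *Igf2*, followed it, with 22 to 172 counts in the 6 mice and at most 5 in the others. *Igfals* had 46.1, 40.7, 9.19 and 13.3 CPM in WT, 29.6, 26.0, 6.85 and 14.1 in RC/RC and 8.25, 33.6, 6.32 and 28.7 in RC/RC:*Casp1*KO, with the same 6 mice high.

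**Figure D2:**
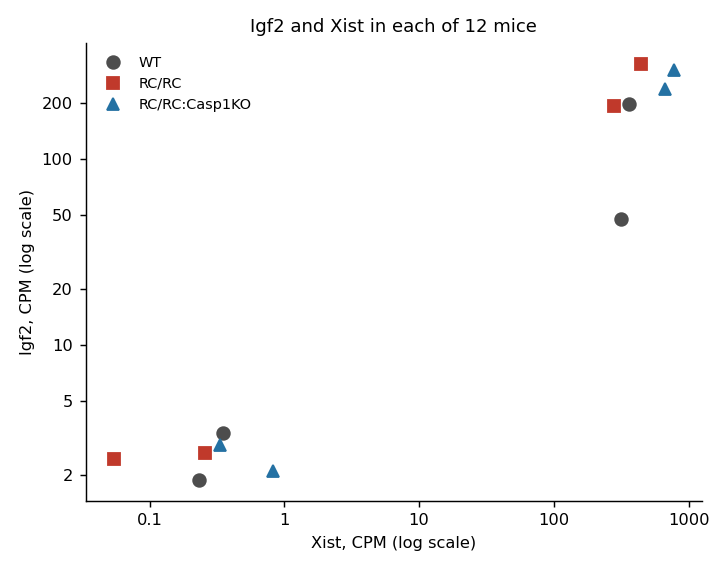
*Igf2* against *Xist* in CPM (both log scales), 1 point per mouse, with shape and colour for the group. Each group has 2 mice with high *Igf2* and high *Xist* and 2 mice with low values of both, so that the spread lies within groups and not between them.

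*Igf2r* was the 1 gene of 10 called in RC/RC:*Casp1*KO relative to RC/RC, where it was higher. Here 11.6% of 15428 genes were called, 7.23% as higher and 4.41% as lower. Groups did not overlap for *Igf2r*, which was higher, and for *Igfbp7*, which was lower and not called, against 20.5% of all genes. Before adjustment, 6 of the 10 had p under 0.05, beside 31.7% of all genes. Without RC139 and RC143, edgeR called 0 of 16025 genes at an adjusted p under 0.05 and 3334 at an unadjusted p under 0.05, so that no call given here for RC/RC:*Casp1*KO relative to RC/RC was kept in that fit of 6 mice. No other pair of mice was left out, and with 1 mouse left out the calls numbered 438 (without RC140) to 2789 (without RC105).

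*Igf2r*, the lysosomal clearance receptor, had 99.8, 74.1, 88.3 and 134 CPM in RC/RC and 198, 134, 205 and 154 in RC/RC:*Casp1*KO, so that even the lowest RC/RC:*Casp1*KO mouse was just above RC143 (134.1 and 133.6 CPM). In WT it had 118 (B6_2), 102 (B6_3), 220 (B6_4) and 217 (B6_6) CPM, with B6_4 and B6_6 well above the other pair. The mean rose from 98.9 ± 25.4 to 173 ± 34.4 CPM (SD, n = 4), or 1.74-fold (log2 fold change 0.80 ± 0.21 SE, adjusted p = 0.0414). Against WT, with a mean of 164 ± 63.0 CPM, neither RC/RC (log2 fold change -0.74 ± 0.29 SE, adjusted p = 0.124) nor RC/RC:*Casp1*KO (log2 fold change 0.08 ± 0.28 SE, adjusted p = 0.889) passed. With *Xist* as a covariate, the difference of RC/RC from WT did pass (log2 fold change -0.69, adjusted p = 0.0460). The call was kept when RC143 was left out (adjusted p = 0.0201) and lost without any other mouse of the pair of groups: 0.0574 without RC105, 0.0802 without RC139, 0.116 without RC140, 0.0888 without Del3_42, 0.0559 without Del3_60, 0.0840 without Del3_70 and 0.0857 without Del3_105. It was also lost without both RC139 and RC143 (0.0848) and in 1 fit over all 12 mice (0.0640).

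Marker genes of the proximal tubule, the segment that reabsorbs most of the filtrate, were also lower on average in RC/RC than in the other groups. The 10 genes of the list, led by *Slc34a1*, summed to 12320, 14070, 16980 and 18090 CPM in WT, 8918, 6156, 9823 and 13620 in RC/RC and 16220, 14250, 14140 and 13550 in RC/RC:*Casp1*KO, and none was at 3 counts or fewer in all mice. All 10 had negative log2 fold changes in RC/RC relative to WT, where *Slc5a2* and *Cubn* were called lower. Set beside RC/RC, RC/RC:*Casp1*KO had positive values for 9 of the 10, with 4 that did not overlap, all higher, and *Lrp2* and *Cubn*, which encode the endocytic receptors megalin and cubilin, were called higher. *Lrp2* had 1538, 1638, 2858 and 3102 CPM in WT, 1541, 802, 733 and 1307 in RC/RC and 2712, 3972, 2463 and 3394 in RC/RC:*Casp1*KO, with B6_4 and B6_6 above B6_2 and B6_3 as for *Igf2r*. Low values in RC/RC were not particular to this segment. The 4 distal convoluted tubule genes had a mean sum of 1509 CPM for WT, 369 for RC/RC and 827 for RC/RC:*Casp1*KO. Of these, 3 were called lower in RC/RC than in WT, and *Slc12a3* higher in RC/RC:*Casp1*KO than in RC/RC. Thick ascending limb sums averaged 5756, 4086 and 4827 CPM in that order, without calls. Collecting duct sums were instead highest in RC/RC (889, 1282 and 996 CPM). The part of any of these cells in the *Igf2r* values was not tested.

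*Igf1r*, the signalling receptor, had 55.4, 67.9, 152 and 123 CPM in WT, 71.6, 39.7, 54.5 and 90.9 in RC/RC and 151, 90.7, 147 and 86.2 in RC/RC:*Casp1*KO. RC143 overlapped the 2 lower RC/RC:*Casp1*KO mice, and the difference missed the threshold (log2 fold change 0.88 ± 0.28 SE, adjusted p = 0.0686). Without RC143 it passed, with a log2 fold change of 1.12 and an adjusted p of 0.0349, as it did with DESeq2 (0.0159) and with *Xist* as a covariate (0.0249). The difference from WT was -0.64 ± 0.35 on the log2 scale in RC/RC (SE, adjusted p = 0.254) and 0.26 ± 0.34 in RC/RC:*Casp1*KO (adjusted p = 0.672). As with *Igf2r*, B6_4 and B6_6 were high and B6_2 and B6_3 low in WT, and Del3_42 and Del3_70 were high and Del3_60 and Del3_105 low in RC/RC:*Casp1*KO. B6_2, B6_3, Del3_60 and Del3_105 are among the mice with high *Xist*. In RC/RC, RC105 and RC139 have high *Xist*, and RC139 and RC140 were the lowest.

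The 2 receptors followed each other over the 12 mice with r = 0.95 on log2 CPM, and *Igfbp7* ran opposite to both (r = -0.98 with *Igf2r* and -0.94 with *Igf1r*). After the group means were removed, these values were 0.94, -0.96 and -0.93. They describe 12 libraries that also differ in how reads spread over gene length. For each mouse, the median deviation of log2 CPM from the gene's mean over all mice was taken among long genes (at least 4456 bp) and among short genes (at most 1922 bp). Long minus short came to -0.38, -0.476 and -0.108 in RC139, RC140 and RC143 and 0.085 in RC105, but to 0.020, 0.183, 0.305 and 0.250 in Del3_42, Del3_60, Del3_70 and Del3_105. In WT it was -0.146, -0.074, 0.156 and 0.136 in B6_2, B6_3, B6_4 and B6_6. *Igf2r* is 8887 bp long in the table, longer than 97.0% of genes tested, whereas *Igfbp7*, at 1213 bp, exceeds 10.7%. Over the 12 mice the length difference had r = 0.76 with *Igf2r*, 0.76 with *Igf1r* and -0.76 with *Igfbp7*. With each library's length trend removed, *Igf2r* was no longer called in RC/RC:*Casp1*KO relative to RC/RC (log2 fold change 0.52, adjusted p = 0.117), while *Igf1r* stood at 0.82 (0.0903) and *Igfbp7* at -0.24 (0.318). The genes most like *Igf2r* were *Dgkg*, *Braf* and *Lama3*, each with r = 0.98.

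**Figure D3:**
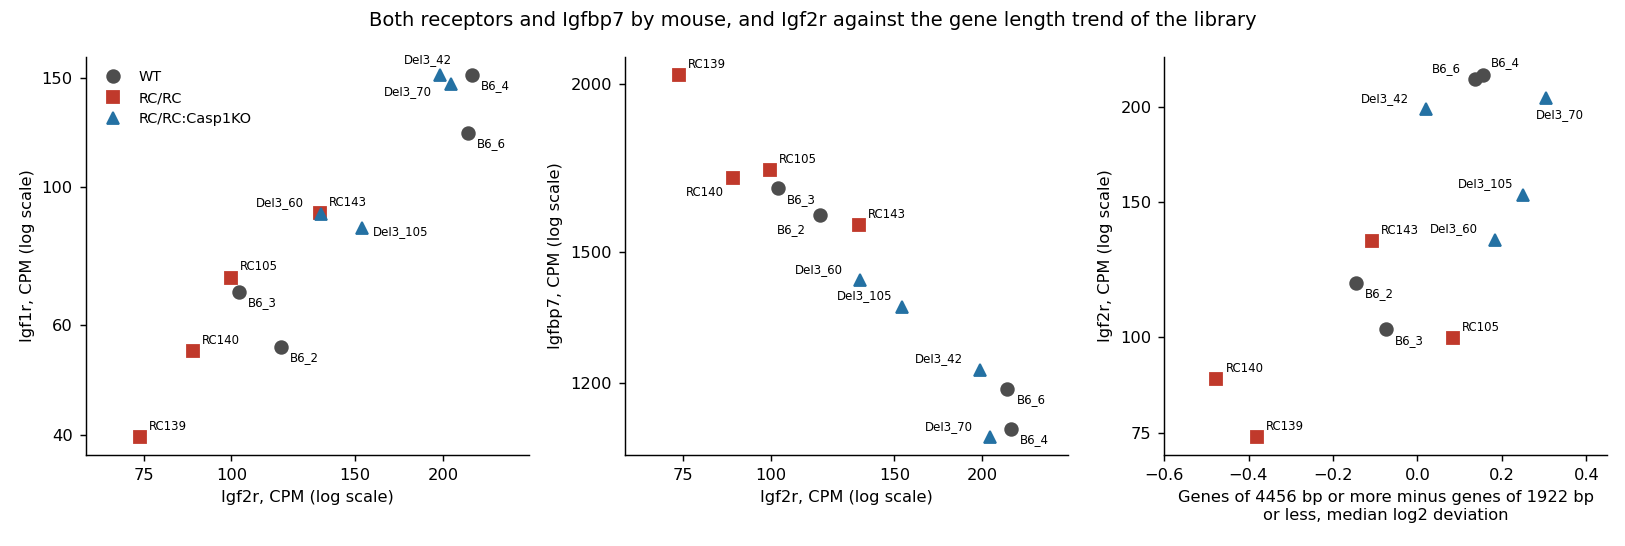
*Igf1r* (left) and *Igfbp7* (centre) against *Igf2r*, in CPM on log scales, and *Igf2r* against the length difference of each library (right), 1 named point per mouse. *Igf1r* is higher and *Igfbp7* lower where *Igf2r* is higher, and RC139 and RC140 lie lowest for *Igf2r* and for the length difference.

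Both remaining receptors of the insulin receptor family were higher in RC/RC:*Casp1*KO than in RC/RC. *Insrr*, an orphan relative known as a sensor of alkaline pH in kidney, had 37.5, 46.1, 40.4 and 51.3 CPM in WT, 28.8, 17.5, 16.4 and 23.7 in RC/RC and 37.8, 58.1, 50.4 and 64.6 in RC/RC:*Casp1*KO. RC/RC stood apart below both other groups (log2 fold change -1.03 ± 0.19 SE, adjusted p = 0.00805, against WT), and *Insrr* was higher again in RC/RC:*Casp1*KO (log2 fold change 1.29 ± 0.21 SE, adjusted p = 0.00986). Both calls were kept in all 8 fits with a mouse left out, and both were lost without RC139 and RC143 together (adjusted p = 0.0641 and 0.0884). *Insr*, the insulin receptor, had 115, 79.0, 71.5 and 106 CPM in RC/RC and 142, 163, 156 and 144 in RC/RC:*Casp1*KO, which did not overlap (log2 fold change 0.70 ± 0.16 SE, adjusted p = 0.0268), and the call was kept in 3 of 8 fits with a mouse left out (without RC105, RC143 or Del3_70, adjusted p up to 0.0719 in the others). *Insr* was called in 9 of 10 fits with other settings, with log2 fold changes down to 0.411.

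Among the binding proteins, *Igfbp6*, which prefers IGF2 over IGF1, had 1.10 (B6_2), 1.20 (B6_3), 1.55 (B6_4) and 0.890 (B6_6) CPM in WT and 2.83 (RC105), 15.7 (RC139), 2.81 (RC140) and 8.38 (RC143) in RC/RC. All RC/RC mice were above all WT mice, and RC139 and RC143 were far above the other pair. The mean rose from 1.18 ± 0.275 to 7.43 ± 6.12 CPM (SD, n = 4), a 6.25-fold difference (log2 fold change 2.64 ± 0.58 SE, adjusted p = 0.0163). RC/RC:*Casp1*KO mice had 3.32 (Del3_42), 1.04 (Del3_60), 2.50 (Del3_70) and 3.75 (Del3_105) CPM, differing past the threshold neither from RC/RC (log2 fold change -1.50 ± 0.61 SE, adjusted p = 0.129) nor from WT (log2 fold change 1.16 ± 0.40 SE, adjusted p = 0.151). The difference from RC/RC was -0.80 on the log2 scale without RC139 (adjusted p = 0.387) and -0.064 without both RC139 and RC143 (0.953), and DESeq2 called it over all 8 mice (0.0449).

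The order of *Igfbp6* among mice ran close to that of adipocyte RNA. RC139 and RC143 had the most of both, and Del3_105, Del3_42 and B6_4, which came next in adipocyte RNA, were the highest of their groups for *Igfbp6*. RC105 and RC140 had under 0.5 CPM of adipocyte genes, as did 3 of the WT mice, and their *Igfbp6* (2.83 and 2.81 CPM) was above the highest WT mouse (1.55). Without RC139 and RC143 the log2 fold change over WT was 1.24 in place of 2.64, with an adjusted p of 0.0642. It was 1.96 (adjusted p = 0.0315) without RC139 alone, and the call was lost without B6_6 (2.53, 0.0530). Whether adipocyte or fibroblast RNA had a part in the size of the difference was not tested. The genes most like *Igfbp6* were *Slc36a2*, an amino acid transporter (r = 0.96), *Hp*, haptoglobin (r = 0.94) and *Nov*, a secreted protein with an IGFBP domain (r = 0.94).

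**Figure D4:**
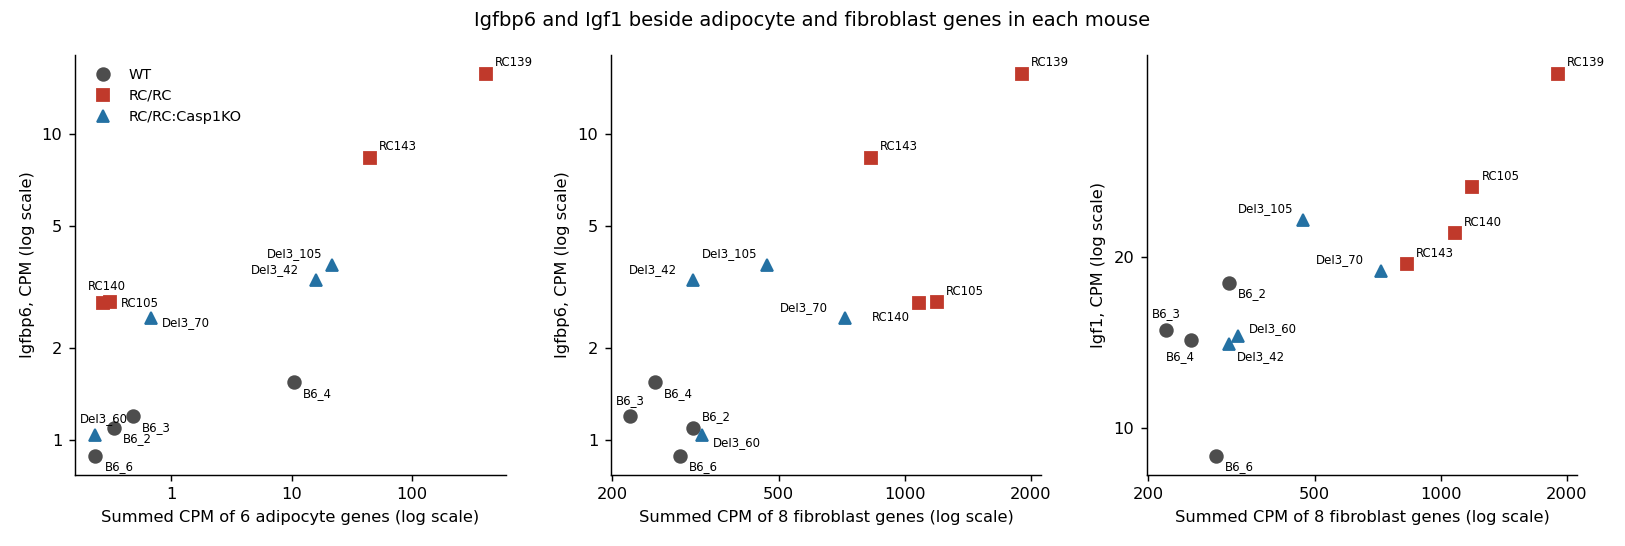
*Igfbp6* against the summed CPM of 6 adipocyte genes (left) and of 8 fibroblast genes (centre), and *Igf1* against the same fibroblast sum (right), log scales, 1 named point per mouse. RC139 and RC143 are highest for *Igfbp6* and adipocyte RNA, while RC105 and RC140 are low in adipocyte RNA and above the WT mice for *Igfbp6*.

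*Igfbp2*, a fetal and fasting-related binding protein, had 3.68, 8.62, 12.7 and 0.375 CPM in WT and 27.7, 31.7, 32.4 and 14.1 in RC/RC. The groups did not overlap, though WT ranged 33.8-fold from its lowest to its highest mouse, and a 4.16-fold difference was not called (log2 fold change 2.06 ± 0.70 SE, adjusted p = 0.086). It was called by limma on log2(FPKM + 1), with a log2 fold change of 2.25 and an adjusted p of 0.0406. Among RC/RC:*Casp1*KO mice, 3 had 4.38 to 6.31 CPM and Del3_70 had 30.2 CPM, within the RC/RC range. The comparison with RC/RC was not called (log2 fold change -1.20 ± 0.60 SE, adjusted p = 0.2). Without Del3_70 it was, with a log2 fold change of -2.32 and an adjusted p of 0.00751. Genes of injured tubule, led by *Spp1*, were called higher for 7 of 8 in RC/RC relative to WT, and Del3_70 was the highest of its group for *Spp1* (1928 against 635 to 1751 CPM), *Havcr1* (41.9 against 6.09 to 13.0 CPM) and *Lcn2* (62.1 against 4.65 to 12.7 CPM). Their part in the *Igfbp2* values was not tested.

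*Igfbp1*, the binding protein that fasting raises in liver, varied widely between mice. It had 14.9, 29.3, 3.10 and 8.81 CPM in WT, 23.1, 3.63, 1.19 and 4.85 in RC/RC and 16.8, 10.97, 8.77 and 18.9 in RC/RC:*Casp1*KO. All groups overlapped. The coefficient of variation reached 123% in RC/RC, where RC105 stood apart at 23.1 CPM, and no comparison called it (adjusted p = 0.57, 0.484 and 0.994 by edgeR for RC/RC relative to WT, RC/RC:*Casp1*KO relative to RC/RC and RC/RC:*Casp1*KO relative to WT).

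*Igfbp3*, the main carrier of IGFs in blood, had 453, 378, 324 and 336 CPM in WT, 247, 358, 378 and 324 in RC/RC and 278, 216, 206 and 281 in RC/RC:*Casp1*KO. Every RC/RC:*Casp1*KO mouse was below every WT mouse, at 245 ± 39.7 against 373 ± 58.4 CPM (SD, n = 4), but the difference missed the threshold (log2 fold change -0.60 ± 0.15 SE, adjusted p = 0.0844). It passed with DESeq2 (adjusted p = 0.00520) and with *Xist* as a covariate (0.0309). No gene of the 10 was called by edgeR in RC/RC:*Casp1*KO relative to WT, where 2.03% of 15346 genes were, 1.13% as higher and 0.893% as lower. *Igfbp3* was the only one of the 10 whose groups did not overlap in this comparison, against 13.7% of all genes, and 2 of the 10 (*Igfbp3* and *Igfbp6*) had p under 0.05 before adjustment, where 21.8% of all genes did. DESeq2 called 1, *Igfbp3*.

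*Igfbp7*, the most abundant binding protein, had 1727, 2031, 1702 and 1572 CPM in RC/RC and 1228, 1430, 1094 and 1367 in RC/RC:*Casp1*KO, so the groups did not overlap, and its mean was 1758 ± 195 against 1280 ± 150 CPM (log2 fold change -0.46 ± 0.16 SE, adjusted p = 0.0818). The difference passed with DESeq2 (adjusted p = 0.0116) and with *Xist* as a covariate (0.0389). The WT mice, at 1600, 1674, 1110 and 1188 CPM, overlapped both. *Igfbp7* is also found in endothelium, and the 10 endothelial genes summed to 973, 1485, 1190 and 960 CPM in RC/RC and 845, 875, 723 and 909 in RC/RC:*Casp1*KO, with 1 of 10 called, as lower. *Igfbp4* ranged from 990 to 1280 CPM in WT, 783 to 1658 in RC/RC and 811 to 1051 in RC/RC:*Casp1*KO, and *Igfbp5* from 562 to 769, 562 to 863 and 573 to 786 CPM. All groups overlapped for both genes, and their absolute log2 fold changes stayed at or under 0.35, with adjusted p from 0.276 to 0.936.

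**Figure D5:**
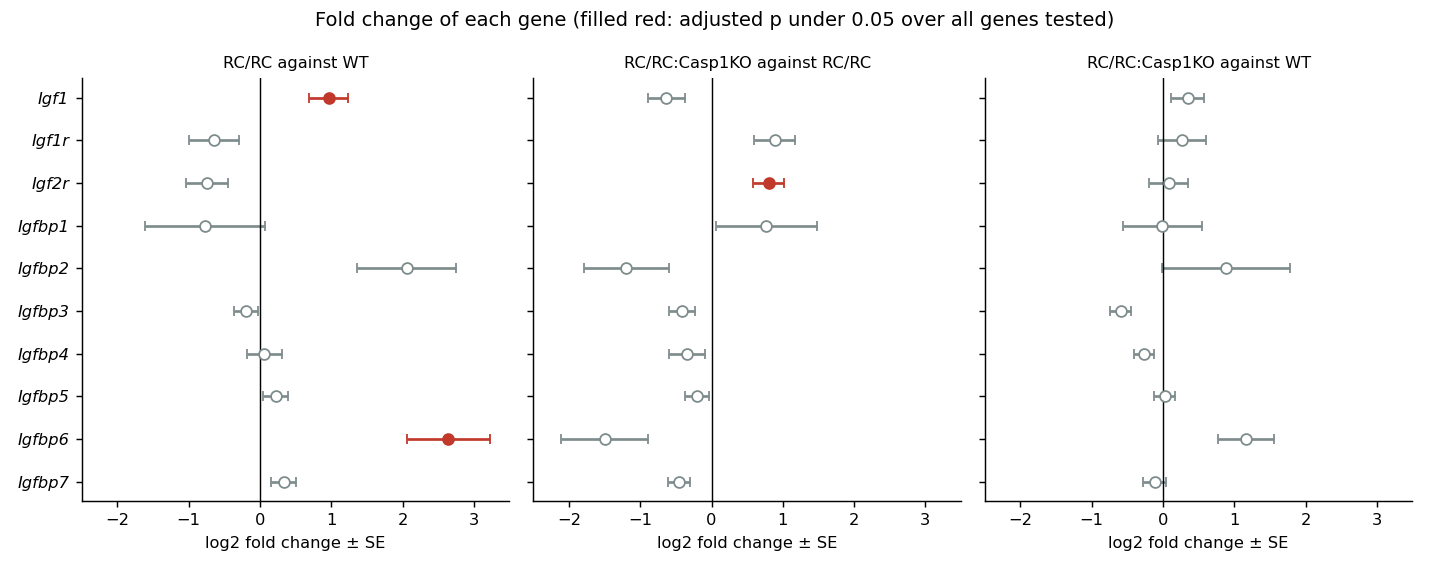
Log2 fold change with its SE for the 10 genes in the 3 comparisons, from fits of 8 mice each. Filled red points mark *Igf1* and *Igfbp6* in RC/RC relative to WT and *Igf2r* in RC/RC:*Casp1*KO relative to RC/RC, and open points were not called. The comparisons share mice, so their panels are not independent.

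Counted by role, of the ligand and the 2 receptors 1 was called higher in RC/RC relative to WT (*Igf1*) and 1 higher in RC/RC:*Casp1*KO relative to RC/RC (*Igf2r*). Each is 33.3% of these 3 genes, beside 12.9% and 11.6% of all genes called in those comparisons. Of the 7 binding proteins, 1 was called, *Igfbp6* in RC/RC relative to WT, which is 14.3% beside the same 12.9%. The median log2 fold change of the 7 was 0.22 in RC/RC relative to WT, -0.42 in RC/RC:*Casp1*KO relative to RC/RC and -0.01 in RC/RC:*Casp1*KO relative to WT, beside medians over all genes tested of -0.02, -0.03 and 0.01. Set against the RC/RC mice, RC/RC:*Casp1*KO had negative values for 6 of the 7 and a positive one for *Igfbp1*, where the median over all genes was also just under 0 (-0.03).

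A list of 84 other genes of the pathway was measured beside the 10. Of 78 tested in RC/RC relative to WT, 11 were called higher and 3 lower. Of 79 in RC/RC:*Casp1*KO relative to RC/RC, 9 were higher and 6 lower, and of 78 in RC/RC:*Casp1*KO relative to WT, 1 was higher. These are 17.9%, 19% and 1.28% of those tested, beside the 12.9%, 11.6% and 2.03% of all genes given above. The 11 include *Wisp2* and the 9 include *Igf2bp3*, each of which passed the filter only through the group where it was high. They raise the first 2 shares, and no conclusion is drawn from these shares.

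Regulators of the binding proteins included the stanniocalcins, which inhibit the pappalysin proteases that cleave IGFBPs. *Stc1* had 5.50, 6.70, 5.99 and 6.61 CPM in WT, 26.4, 15.6, 13.3 and 14.9 in RC/RC and 6.92, 15.7, 11.6 and 15.3 in RC/RC:*Casp1*KO. Every RC/RC mouse stood at 13.3 CPM or more and every WT mouse under 7 CPM (log2 fold change 1.49 ± 0.22 SE, adjusted p = 0.00297). *Stc2* had 5.98, 6.51, 2.80 and 3.47, 14.6, 15.2, 11.4 and 8.50 and 7.20, 6.54, 10.1 and 10.4 CPM in the same groups, and RC/RC was again above WT without overlap (log2 fold change 1.40 ± 0.30 SE, adjusted p = 0.0147). Both calls were kept in all 8 fits with a mouse left out. Without RC139 and RC143 together, *Stc1* was called (adjusted p = 0.0143) and *Stc2* was not (0.051). All RC/RC:*Casp1*KO mice were above the WT mice for both genes, for *Stc2* only narrowly (lowest 6.54 against highest 6.51 CPM), but neither passed against WT (adjusted p = 0.0759 and 0.147) or against RC/RC (0.256 and 0.143). No other gene of this list was called in any comparison, including the pappalysin *Pappa*, named here after its values were seen. *Pappa* ranged from 8.25 to 14.1 CPM in WT, 9.28 to 18.96 in RC/RC and 13.9 to 16.1 in RC/RC:*Casp1*KO.

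Secreted proteins that share the IGFBP domain but not the high affinity for IGFs made up 12 genes, of which 10 were tested in RC/RC relative to WT. Of these, 5 were called higher and none lower, beside 9.76% and 3.18% of all genes. The 5 include *Wisp2*, which passed the filter only through RC/RC. *Cyr61*, a matricellular CCN protein known as a YAP target, had 14.8, 12.7, 24.1 and 16.4 CPM in WT, 80.9, 67.5, 80.7 and 71.0 in RC/RC and 25.9, 33.7, 41.99 and 32.9 in RC/RC:*Casp1*KO. The 3 groups did not overlap: RC/RC was 4.38-fold above WT (log2 fold change 2.13 ± 0.19 SE, adjusted p = 0.000339), and RC/RC:*Casp1*KO was lower than RC/RC (log2 fold change -1.16 ± 0.14 SE, adjusted p = 0.0034) and stood between them. *Ctgf*, another CCN protein and YAP target, had 105.1, 278, 141 and 132 CPM in RC/RC and 49.9, 84.4, 81.9 and 65.9 in RC/RC:*Casp1*KO (log2 fold change -1.22 ± 0.31 SE, adjusted p = 0.0366), a call kept in 2 of 8 fits with a mouse left out (without RC105 or RC143, adjusted p up to 0.0973 in the others).

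*Htra3*, a serine protease with an IGFBP domain, had 1.91, 0.670, 0.799 and 0.937 CPM in WT, 12.1, 27.9, 10.6 and 9.02 in RC/RC and 3.05, 5.81, 6.63 and 7.68 in RC/RC:*Casp1*KO. It was higher than WT in RC/RC (log2 fold change 3.78 ± 0.47 SE, adjusted p = 0.00141) and, as the 1 pathway gene called there, in RC/RC:*Casp1*KO (log2 fold change 2.43 ± 0.40 SE, adjusted p = 0.0235), where the call was kept in 3 of 8 fits with a mouse left out (without B6_2, B6_4 or Del3_42, adjusted p up to 0.0739 in the others). *Wisp2*, a CCN protein of mesenchymal cells, had 0, 0, 6 and 1 counts in WT and 46, 77, 53 and 76 in RC/RC. It was called higher (adjusted p = 0.00312), and the size of its fold change rests on those few WT reads. *Wisp2* passed the filter only in comparisons that held RC/RC, where it was high, so no conclusion is drawn from its call. *Nov* had 0.383, 0.814, 0.599 and 0.281 CPM in WT and 1.28, 3.73, 1.35 and 2.23 in RC/RC, highest in RC139 and RC143 like *Igfbp6* (log2 fold change 2.03 ± 0.47 SE, adjusted p = 0.0201). Its call was lost without B6_2 (adjusted p = 0.0526), B6_6 (adjusted p = 0.0613) or RC139 (adjusted p = 0.0539), and without both RC139 and RC143 the adjusted p was 0.167. All 10 genes of this group tested in RC/RC:*Casp1*KO relative to RC/RC had negative log2 fold changes, with a median of -1.16. Both the 10 and the median include *Wisp2*, which passed the filter only through RC/RC, so its negative sign was fixed in advance. Of the 10 genes, 2 were called (*Cyr61* and *Ctgf*), 20% of those tested beside 11.6% of all genes. All 8 genes of the fibroblast list also had negative log2 fold changes in the same comparison, and 6 of them were called lower.

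Downstream of the receptors, 35 of 36 signalling genes were tested. In RC/RC relative to WT 4 were called higher and 1 lower, 14.3% of those tested beside 12.9% of all genes. *Sh2b2*, an adaptor of the insulin receptor, had 1.29, 1.39, 1.20 and 0.984 CPM in WT and 3.45, 9.05, 4.48 and 4.25 in RC/RC (log2 fold change 2.12 ± 0.34 SE, adjusted p = 0.00421). *Inpp5d*, a phosphatase of blood cells that opposes PI3K signalling, was also higher (log2 fold change 0.62 ± 0.15 SE, adjusted p = 0.0246), a call kept in 4 of 8 fits with a mouse left out (without B6_2, B6_6, RC105 or RC143, adjusted p up to 0.0789 in the others) and lost without RC139 and RC143 together (0.128). *Tsc2*, which restrains mTORC1, fell from 97.2, 101, 93.1 and 98.1 CPM in WT to 69.5, 55.2, 58.8 and 67.3 in RC/RC (log2 fold change -0.64 ± 0.10 SE, adjusted p = 0.00399), with no overlap, a call kept in all 8 fits with a mouse left out.

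Compared with RC/RC, 4 of 35 signalling genes were called higher and 4 lower in the RC/RC:*Casp1*KO mice, 22.9% of those tested beside 11.6% of all genes. *Sh2b2* was lower (log2 fold change -1.29 ± 0.35 SE, adjusted p = 0.0439), as was *Eif4ebp1*, the translation repressor that mTORC1 inactivates (log2 fold change -1.05 ± 0.28 SE, adjusted p = 0.0443). *Tsc1*, the partner of *Tsc2*, was higher (log2 fold change 0.66 ± 0.16 SE, adjusted p = 0.0316), as was *Rictor*, the defining subunit of mTORC2 (log2 fold change 0.66 ± 0.15 SE, adjusted p = 0.0278). Among 8 fits with a mouse left out, these 4 calls were kept without RC105 or without RC143 and lost without any other mouse (adjusted p up to 0.109). In 10 fits with other settings, *Tsc1* and *Rictor* were each called in 8, with log2 fold changes down to 0.435 and 0.366. *Sh2b2* and *Eif4ebp1* were each called in 6 of these 10. None of the 35 was called in RC/RC:*Casp1*KO relative to WT. *Igf2bp3*, an IGF2 mRNA-binding protein, was called higher in RC/RC:*Casp1*KO than in RC/RC at 0.4998 to 1.04 against 0.158 to 0.271 CPM (adjusted p = 0.0226). The call was kept in 3 of 8 fits with a mouse left out (without RC105, RC143 or Del3_70, adjusted p up to 0.0763 in the others). *Igf2bp3* had only 3 to 7 counts in RC/RC and 11 to 22 in RC/RC:*Casp1*KO. It passed the filter only in comparisons that held RC/RC:*Casp1*KO, where it was high, so no conclusion is drawn from its call.

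FOXO factors, which IGF1 and insulin keep out of the nucleus through AKT, and genes known as their targets made up 15 genes, of which 14 were tested. In RC/RC relative to WT 1 was called, 7.14% of those tested beside 12.9% of all genes. This was *Trim63*, a muscle ubiquitin ligase, which was lower at 2.44, 2.84, 9.12 and 8.20 against 13.3, 12.3, 18.2 and 29.9 CPM (log2 fold change -1.72 ± 0.47 SE, adjusted p = 0.0419). Its call was kept in 4 of 8 fits with a mouse left out (without B6_2, B6_3, RC140 or RC143, adjusted p up to 0.116 in the others) and lost without RC139 and RC143 together (0.151). The median log2 fold change of the list was -0.38 in RC/RC relative to WT, -0.09 in RC/RC:*Casp1*KO relative to RC/RC and -0.29 in RC/RC:*Casp1*KO relative to WT, and no other gene of it was called in any comparison.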

How the data were processed

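The authors deposited a table of read counts per gene from poly(A) libraries of whole kidney. Their processing notes name CASAVA 1.8, STAR and mm10; the counting tool and the use of strand are not given in the sources used here. The submitters' FPKM, group means and columns of their own comparisons (fold changes and p-values) were not used. Columns were matched to groups by name, and no per-sample column was unmatched. The mice are separate animals.

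From the deposited counts, each of 3 comparisons was fitted on its 8 mice with edgeR 4.0.16 in R 4.3.3 (filterByExpr, TMM factors, quasi-likelihood test), with Benjamini-Hochberg adjustment over all genes tested and a threshold of 0.05. The SE is the absolute log2 fold change over the square root of F. CPM used the TMM factors, and FPKM was computed from the counts, the table's gene lengths and the library totals, with a pseudocount of 1 for limma 3.58.1. DESeq2 1.42.0 was an alternative. Of 35275 genes, 10792 had no count. Tested on simulated data, the fit for RC/RC relative to WT recovered 46 of 103 genes changed 2-fold and 87 of 93 changed 4-fold, with 14 false calls. Named pathway genes were the called ones of each list, at most the 4 with the largest change, and the 3 genes most like each called member by Pearson's r. An item that this rule names is not reported here. Members and lists were chosen with earlier results of these data known. Comparisons share mice. Promoter sequences are from RefSeq on GRCm38.p6.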

Additional observations from a re-analysis of the deposited data

Results flagged for a closer look

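In groups of 4 mice, a mouse was picked out where its gap to the nearest other as a share of the group's whole range exceeded Dixon's 95% critical value. Among 30 groups (10 genes in 3 groups of mice) this picked out 2, where chance picks out about 1 in 20. *Igfbp1* in RC/RC was highest in RC105, at 23.07 CPM against 4.853 CPM in the next mouse, a gap of 0.8324 of the range. Without RC105, *Igfbp1* was higher in RC/RC:*Casp1*KO than in RC/RC by edgeR (log2 fold change 2.07, adjusted p = 0.0265). *Igfbp2* in RC/RC:*Casp1*KO was highest in Del3_70, at 30.17 CPM against 6.308 CPM in the next mouse, a gap of 0.9251 of the range. Del3_70 was also the highest of its group for fibroblast genes (720 CPM summed over 8 genes, against 313 to 469), macrophage genes (482 CPM over 9 genes, against 210 to 278) and the injury markers *Lcn2* (62.1 CPM against 4.65 to 12.7) and *Havcr1* (41.9 CPM against 6.09 to 13.0), and their part in *Igfbp2* was not tested.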

How the results depend on the processing

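No paired analysis was possible because the columns carry no replicate numbers shared between groups. Leaving out both RC139 and RC143, removing each library's gene length trend and adding *Xist* as a covariate were chosen after seeing the data. Of the 10 genes, 2 were called in RC/RC relative to WT; RLE factors gave 1, *Xist* 3, leaving out both mice 0, and leaving out 1 mouse 0 to 2. Limma also gave 2, but *Igfbp2* and *Igfbp6* in place of *Igf1* and *Igfbp6*. In RC/RC:*Casp1*KO relative to RC/RC the 1 call became 4 with DESeq2, 3 with *Xist*, 0 in 1 fit over 12 mice, 0 without both mice, 0 without the length trend and 0 to 2 without 1 mouse. In RC/RC:*Casp1*KO relative to WT, DESeq2 and *Xist* gave 1 each in place of 0. The causes were not tested.

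Over all genes, the 1971 calls of RC/RC relative to WT became 2988 with DESeq2, 1050 without both mice and 1162 to 2440 without 1 mouse. The 1797 of RC/RC:*Casp1*KO relative to RC/RC became 3175 with DESeq2, 993 with library size alone, 1052 with limma, 0 without both mice and 438 to 2789 without 1 mouse. The 311 of RC/RC:*Casp1*KO relative to WT became 1406 with DESeq2, 167 when genes under 10 counts in any mouse were left out, 1367 with *Xist* and 108 to 547 without 1 mouse. Pathway calls numbered 7 without both mice and 9 to 16 without 1 mouse in RC/RC relative to WT. In RC/RC:*Casp1*KO relative to RC/RC they numbered 8 with library size alone, 5 with limma, 0 without both mice and 2 to 16 without 1 mouse. In RC/RC:*Casp1*KO relative to WT they numbered 9 with DESeq2, 8 with *Xist*, 2 each with library size alone, no filter, 1 fit over 12 mice and limma, and 0 to 4 without 1 mouse. The share of calls that were higher moved from 75.4% to 86.1% with library size alone in RC/RC relative to WT, from 62.1% to 82.0% in RC/RC:*Casp1*KO relative to RC/RC and from 56.0% to 79.8% in RC/RC:*Casp1*KO relative to WT, where that scaling moved the median log2 fold change of all genes by 0.131. Limma gave 84.2%, 79.5% and 76.2%, and 1 fit over 12 mice 67.9% in the last. Without 1 mouse the share was 67.5% to 84.2%, 51.1% to 87.0% and 47.8% to 60.5% in the same order of comparisons.

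Directions turned only for genes that were not called. *Igfbp4* in RC/RC relative to WT went to -0.070 without both mice, -0.015 with *Xist* and -0.135 to 0.207 without 1 mouse (log2 fold changes, as below). In RC/RC:*Casp1*KO relative to WT, *Igf2r* went to -0.059 without the length trend and -0.097 to 0.242 without 1 mouse, *Igfbp5* to -0.069 and -0.086 to 0.114, and *Igfbp2* to -0.260 to 1.440 without 1 mouse. *Igfbp1* there went to 0.129 with library size alone, 0.011 with at least 10 counts, 0.367 with limma, 0.050 without the length trend, 0.111 with *Xist* and -0.358 to 0.633 without 1 mouse, and *Igfbp7* to 0.018 with library size alone and 0.028 with limma.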

Other observations

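In the 7 mice with under 1 CPM of adipocyte RNA, *Igfbp6* was as follows. RC105 and RC140 had 2.83 and 2.81 CPM, Del3_70 and Del3_60 had 2.50 and 1.04 CPM, and B6_2, B6_3 and B6_6 had 0.890 to 1.20 CPM, a range that holds Del3_60. These mice were picked by a measured value, and no test was made.

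*Igf1r* and *Igf2r* were also compared with *Xist* as a covariate, chosen after seeing the data. In RC/RC:*Casp1*KO relative to RC/RC, *Igf1r* then had an adjusted p of 0.0249 and *Igf2r* of 0.0139 by edgeR, with log2 fold changes of 0.92 and 0.84, and *Igf2r* in RC/RC relative to WT had an adjusted p of 0.0460.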
